A study of Homo sapiens with 10 samples.

Results

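The annexin family was followed through 10 genes, namely ANXA1, ANXA2, its processed pseudogene ANXA2P2, ANXA3, ANXA4, ANXA5, ANXA6, ANXA7, ANXA8 and ANXA11, chosen by gene symbol from the 18144 genes listed. The samples were 3D spheroids grown from the human prostate cancer line PC-3, whose genotype the labels give as wild type, and their RNA was sequenced. Spheroids were left untreated or exposed to topotecan, an inhibitor of DNA topoisomerase I, either as a bolus at the start (CONV-TOPO) or as daily fractions in an extended exposure that the series also calls metronomic (EE-TOPO). Of the 10 libraries in the series 7 were analysed, 3 without drug (days 0, 3 and 7), 2 of CONV-TOPO (days 3 and 7) and 2 of EE-TOPO (days 3 and 7). Each treatment and day had 1 library, so a ratio of libraries has no replicate check. The labels name the last time point day 7, whereas the design text of the series speaks of an exposure of several weeks, and the day of the labels is used here.

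Annexins are proteins that bind acidic phospholipids of membranes when calcium is present, through a conserved core of repeated domains. They differ in the N-terminal tail, which carries binding sites for S100 proteins and other partners. In epithelial cells they act in vesicle traffic, in the repair of torn plasma membrane and, at the cell surface, in the activation of plasminogen. Because dying cells expose phosphatidylserine, the best known use of an annexin is the staining of apoptotic cells with ANXA5 protein.

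The values were counts per 1000000 reads (CPM), and the steps between low values gave a depth of 15028130 to 22477936 reads per library. At that depth 3 reads, taken here as the detection limit, are 0.133 to 0.2 CPM. The PC-3 markers KRT8, KRT18, VIM and CD44 lay between 252 and 1169 CPM in all libraries, and KLK3 was not among the genes listed. Of the markers of other cell types, DCN, PDGFRB, VWF and PTPRC stayed at or below 0.532 CPM, whereas COL1A1 (46.6 to 83.0 CPM), PECAM1 (16.8 to 32.7 CPM) and CD68 (65.7 to 128 CPM) were present. TMM scaling, which uses a trimmed mean of log ratios between libraries, raised the ratio to the untreated library of day 7 by 0.25 (CONV-TOPO) and 0.22 (EE-TOPO) on the log2 scale relative to library totals. Less RNA per cell and fewer cells of a kind cannot be told apart in these bulk samples.

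Together the members took 0.302% to 0.352% of the reads, with the highest share in EE-TOPO on day 7. Levels of different genes were compared as CPM per kilobase of the canonical transcript of GENCODE 44. ANXA2P2 came first with a mean of 600 CPM per kilobase (521 to 677) and ANXA2 followed with 488 (381 to 715). ANXA2P2 exceeded ANXA2 in 5 of 7 libraries, so these neighbours overlapped. Reads from one of them can be assigned to the other, so their places rank assigned reads and not the expression of each gene. The first place of ANXA2P2 also rests on a transcript of 1.02 kb, whereas the span listed for this gene is 1.3 kb. ANXA7 (mean 257 CPM per kilobase) and ANXA5 (mean 199.7 CPM per kilobase) each lay above the next gene in 7 of 7 libraries. ANXA1 (mean 89.5 CPM per kilobase) exceeded ANXA11 (mean 83.7 CPM per kilobase) in only 4 of 7 libraries, and the place of ANXA11 rests on a canonical transcript of 6.73 kb, the longest of the family here. ANXA3 (mean 44.8 CPM per kilobase) exceeded ANXA6 (mean 32.3 CPM per kilobase) in 6 of 7 libraries, and ANXA4 had a mean of 11.9 CPM per kilobase. ANXA8 was at 0 CPM in 3 libraries and had at most 0.158 CPM, which was 3 reads, in the others, so it was at or below the detection limit and was not tested.

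**Figure D1:**
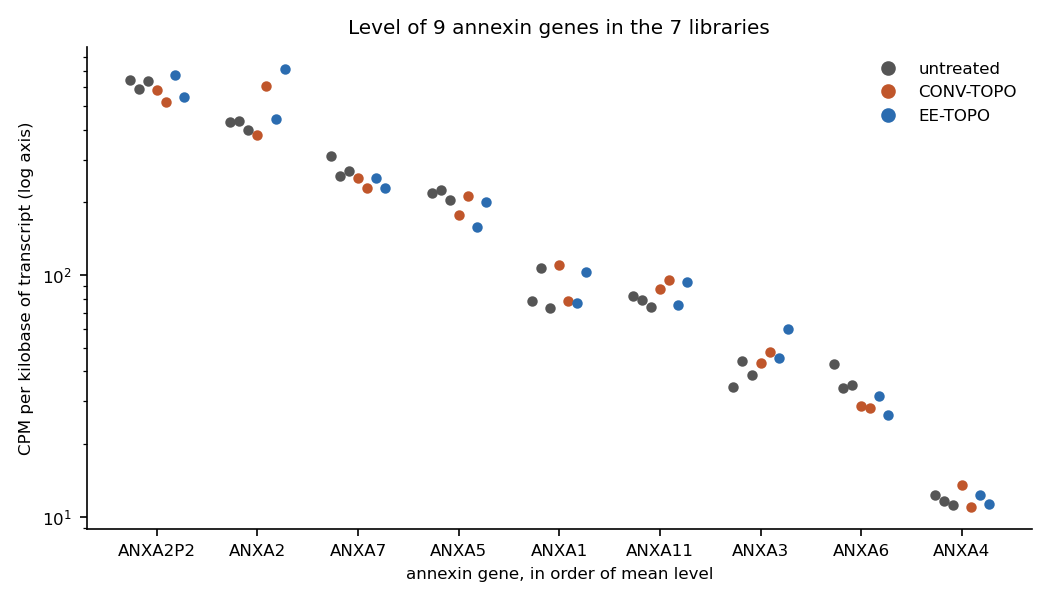
Level of 9 annexin genes in CPM per kilobase of canonical transcript (log axis), in order of the mean, with 1 point per library coloured by treatment. The points of ANXA2P2 (521 to 677) and ANXA2 (381 to 715) overlap, and ANXA4 lies lowest with a mean of 11.9. Reads of ANXA2 and ANXA2P2 can be assigned to each other.

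ANXA2 forms a tetramer with the S100 protein S100A10 and binds plasminogen and its tissue activator at the cell surface. It is listed at chr15:60347151-60397987 of hg38 on the minus strand, with 13 exons, whereas ANXA2P2 is a single-exon copy at chr9:33624225-33625535 on the plus strand. The coding sequence of ANXA2, 1020 bases long, differs from ANXA2P2 at 16 positions (98.43% identity), and reads from one can be assigned to the other. Of the 871 windows of 150 bases in it, 115 (13.2%) are identical in both genes and the others hold at most 6 differences. The window with the most differences is given for both genes with the differing bases in capitals, because it holds the letters that tell their reads apart. It covers coding positions 71 to 220, counted from the A of the start codon, at chr15:60364452-60382419 for ANXA2 (minus strand, across 1 intron) and at chr9:33624344-33624493 for ANXA2P2 (plus strand).
ANXA2: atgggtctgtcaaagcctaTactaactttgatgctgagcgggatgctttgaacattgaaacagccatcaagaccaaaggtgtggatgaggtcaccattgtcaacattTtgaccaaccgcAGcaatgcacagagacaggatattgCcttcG
ANXA2P2: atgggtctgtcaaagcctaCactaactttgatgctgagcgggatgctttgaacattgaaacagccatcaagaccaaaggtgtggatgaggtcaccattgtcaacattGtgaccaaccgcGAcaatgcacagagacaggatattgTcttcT

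The 6 differences are T90C, T178G, A190G, G191A, C215T and G220T, with the base of ANXA2 first. The longest stretch without a difference runs over 221 bases, coding positions 364 to 584, at chr15:60354158-60357230 in ANXA2 (minus strand) and at chr9:33624637-33624857 in ANXA2P2 (plus strand). It is shown because a read from within it cannot be assigned by its letters.
Shared stretch: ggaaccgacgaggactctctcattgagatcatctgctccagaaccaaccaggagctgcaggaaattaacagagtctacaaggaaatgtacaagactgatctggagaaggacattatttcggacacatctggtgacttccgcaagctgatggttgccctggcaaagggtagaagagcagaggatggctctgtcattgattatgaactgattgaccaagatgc

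Each 150-base window of the ANXA2 coding sequence crosses at least 1 of its 11 exon junctions, which the pseudogene lacks. How the counting treated reads that match both genes is not given in the sources used here.

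ANXA2 rose on day 7 of topotecan. Without drug its level on days 0, 3 and 7 was 670.2, 676 and 622 CPM, in that order. On day 3 it was 592 CPM in CONV-TOPO and 689 CPM in EE-TOPO, and on day 7 it was 944 CPM in CONV-TOPO and 1111 CPM in EE-TOPO. Both libraries of day 7 thus stood above all the others, and those of day 3 lay on either side of the untreated ones before scaling. After TMM scaling the ratio to the untreated library of day 7 was 1.81 in CONV-TOPO (95% interval 1.76 to 1.85) and 2.08 in EE-TOPO (2.04 to 2.13), where the intervals cover counting error only. With both regimens as samples of topotecan on day 7 and the untreated days as samples of untreated spheroids, the difference was 0.84 on the log2 scale (SE 0.14, n = 2 and 3 libraries, limma with Benjamini-Hochberg adjusted p = 0.00103).

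ANXA2P2 did not share this rise. It had 655, 603 and 649 CPM in the untreated libraries, 598 and 531 CPM in CONV-TOPO on days 3 and 7, and 691 and 555 CPM in EE-TOPO on days 3 and 7. Its ratio to the untreated library of day 7 was 0.975 (0.949 to 1.00) in CONV-TOPO and 1.00 (0.972 to 1.03) in EE-TOPO, and the fitted difference was -0.03 (log2, SE 0.13, limma adjusted p = 0.889). The number of ANXA2P2 reads per ANXA2 read was 0.978 (0.954 to 1.00), 0.892 (0.869 to 0.915) and 1.04 (1.02 to 1.07) in the untreated libraries and 1.01 (0.980 to 1.04) and 1.00 (0.981 to 1.03) in CONV-TOPO and EE-TOPO on day 3. On day 7 it was 0.563 (0.548 to 0.578) in CONV-TOPO and 0.50 (0.487 to 0.513) in EE-TOPO. This ratio lies within a library and does not depend on the scaling. The sum of both genes, an alternative chosen after seeing the data that does not depend on how shared reads were divided between them, was still higher on day 7 of topotecan than without drug, by 0.48 (log2, SE 0.15, limma adjusted p = 0.0280). This fit of the sum was run with TMM scaling and all libraries only. The log2 ratio of the sum to untreated on day 7 was 0.467 in CONV-TOPO and 0.614 in EE-TOPO, and 0.215 and 0.391 with library totals.

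**Figure D2:**
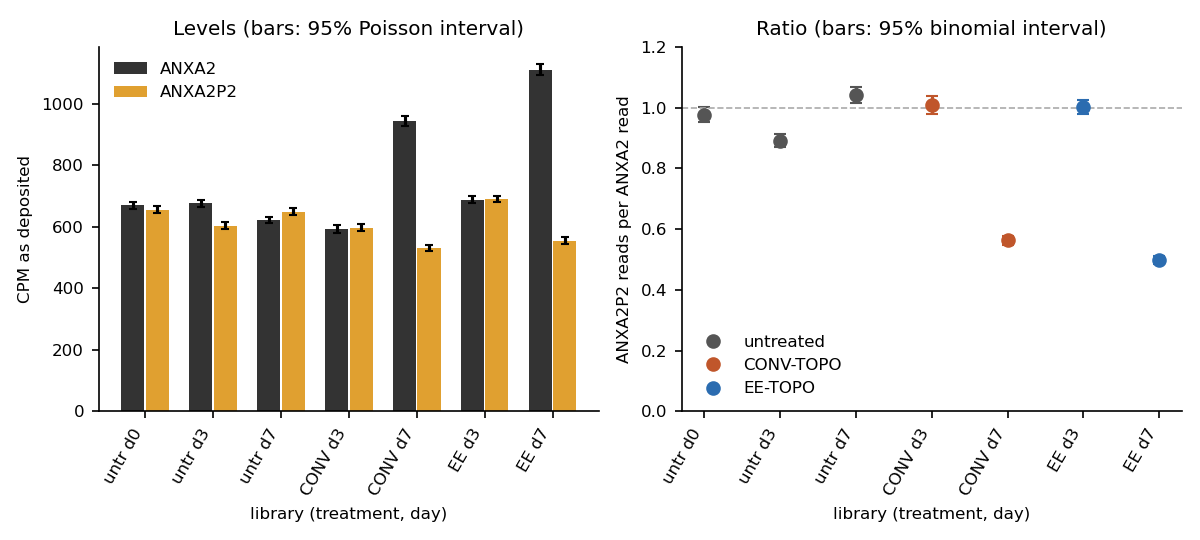
Left, CPM of ANXA2 and ANXA2P2 in each library with 95% Poisson intervals. Right, ANXA2P2 reads per ANXA2 read with 95% binomial intervals, which lies between 0.892 and 1.04 in 5 libraries and at 0.563 and 0.50 in CONV-TOPO and EE-TOPO on day 7.

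S100A10, the light chain of the ANXA2 tetramer, rose with it. It had 392 to 456 CPM in the 5 libraries of untreated spheroids and of topotecan on day 3, and 729 and 734 CPM in CONV-TOPO and EE-TOPO on day 7, so the groups did not overlap. The fitted difference between day 7 of topotecan and untreated was 1.01 (log2, SE 0.12, limma adjusted p = 0.000177). PLAUR, the receptor of urokinase, rose by 0.72 (SE 0.12, limma adjusted p = 0.00112), and PLAT, the tissue plasminogen activator, by 0.49 (SE 0.17, limma adjusted p = 0.0390), a call that was lost with library totals (0.29, adjusted p = 0.158). PLAU, the urokinase itself, ranged from 701 to 2464 CPM with its highest value in the untreated library of day 3, and its difference was 0.19 (SE 0.44, limma adjusted p = 0.749). PLG, which encodes plasminogen, was at most at 0.2 CPM. AHNAK, a giant scaffold protein that the ANXA2 and S100A10 complex binds, fell by 0.96 (SE 0.22, limma adjusted p = 0.00560), from 622 to 1124 CPM in the untreated and day 3 libraries to 418 and 327 CPM on day 7.

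ANXA1, listed at chr9:73151865-73170394 (plus strand), binds S100A11 through its tail and, once secreted, signals through formyl peptide receptors. The untreated libraries held 109.7 (day 0), 149.9 (day 3) and 103 CPM (day 7). CONV-TOPO had 154 CPM on day 3 and 109.5 CPM on day 7, whereas EE-TOPO had 108 CPM on day 3 and 144 CPM on day 7. The 3 high libraries were thus untreated and CONV-TOPO on day 3 and EE-TOPO on day 7, and treated and untreated values overlapped. The scaled ratio of EE-TOPO to CONV-TOPO was 0.688 (0.649 to 0.728) on day 3 and 1.29 (1.21 to 1.37) on day 7. On day 7 both regimens lay above the untreated library, at ratios of 1.27 (1.19 to 1.35) and 1.64 (1.54 to 1.74), but the untreated libraries of days 3 and 7 also differed, at a ratio of 0.678, and the fitted difference was 0.27 (log2, SE 0.20, limma adjusted p = 0.284). S100A11 rose by 1.22 (SE 0.18, limma adjusted p = 0.000537), from 338 to 522 CPM in the untreated and day 3 libraries to 750 (CONV-TOPO) and 944 CPM (EE-TOPO). Of the formyl peptide receptors, FPR1 stayed at or below 0.263 CPM, FPR2 was not among the genes listed and FPR3 reached at most 0.890 CPM. PLA2G4A, the cytosolic phospholipase A2 whose activity ANXA1 inhibits, fell by 0.80 (SE 0.22, limma adjusted p = 0.0127), with 8.77 to 12.9 CPM in the untreated and day 3 libraries and 4.07 and 5.66 CPM on day 7.

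ANXA3, an annexin with a short tail at chr4:78551770-78610446 (plus strand), rose on day 7 of topotecan as well. Its untreated levels were 49.3, 63.0 and 55.1 CPM on days 0, 3 and 7. CONV-TOPO had 61.9 and 69.1 CPM on days 3 and 7, and EE-TOPO had 65.2 and 85.5 CPM. Both libraries of day 7 lay above the untreated ones, EE-TOPO the most. The scaled ratio to untreated on day 7 was 1.49 (1.37 to 1.63) in CONV-TOPO and 1.81 (1.67 to 1.97) in EE-TOPO. The fitted difference was 0.66 (log2, SE 0.13, limma adjusted p = 0.00263).

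ANXA7 and ANXA11 are the annexins with a long tail, which binds the calcium-binding protein PDCD6 and, in ANXA7, sorcin (SRI) and, in ANXA11, S100A6. Both lie on chromosome 10, on the minus strand, ANXA7 at chr10:73375101-73414059 and ANXA11 at chr10:80150889-80205809. ANXA11 had 554, 533 and 495 CPM in the untreated libraries, 587 and 642 CPM in CONV-TOPO on days 3 and 7, and 506 and 631 CPM in EE-TOPO on days 3 and 7. Its day 7 libraries were the highest, and on day 3 CONV-TOPO lay above the untreated range before scaling and EE-TOPO within it. The ratio on day 7 was 1.54 (1.502 to 1.59) in CONV-TOPO and 1.49 (1.45 to 1.53) in EE-TOPO, and the fitted rise was 0.47 (log2, SE 0.14, limma adjusted p = 0.0169). This call rested on the scaling and on single libraries, since the difference was 0.27 (adjusted p = 0.0784) with library totals, 0.44 (0.101) without CONV-TOPO on day 7, 0.50 (0.0769) without EE-TOPO on day 7 and 0.41 (0.0501) without the untreated library of day 7.

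ANXA7 had 759, 629 and 657 CPM without drug, 619 and 559 CPM in CONV-TOPO and 619 and 559.7 CPM in EE-TOPO, on days 3 and 7 in that order. The untreated library of day 0 was thus the highest, and the scaled ratio of EE-TOPO to CONV-TOPO was 0.984 (0.959 to 1.01) on day 3 and 0.982 (0.954 to 1.01) on day 7. After scaling, the ratio to untreated on day 7 was 1.01 (0.986 to 1.04) and 0.995 (0.968 to 1.02), and the fitted difference was -0.08 (log2, SE 0.14, limma adjusted p = 0.666). ANXA7 shares 105 exon bases with a long noncoding RNA on the other strand, and since use of strand in the counting is not given in the sources used here, reads of the pair cannot be told apart. Among the partners, S100A6 rose by 0.75 (SE 0.25, limma adjusted p = 0.0336, but 0.0627 with library totals), from 2252 to 3518 CPM in the untreated and day 3 libraries to 4378 and 4110 CPM (CONV-TOPO and EE-TOPO) on day 7. PDCD6 differed by 0.34 (SE 0.18, adjusted p = 0.150) and SRI by 0.26 (SE 0.15, adjusted p = 0.185), both by limma, so neither passed the test against untreated. Between the days of topotecan PDCD6 rose by 0.67 (SE 0.19, limma adjusted p = 0.0174), but its difference was 0.39 (adjusted p = 0.106) with library totals, which did not pass. SRI rose by 0.76 (SE 0.17, limma adjusted p = 0.00421), and by 0.48 (adjusted p = 0.0238) with library totals.

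ANXA5, ANXA4 and ANXA6 bind exposed phosphatidylserine or the inner face of membranes, and ANXA6 has a longer core than the other family members. ANXA5, at chr4:121667946-121696981 (minus strand), had 358, 369 and 336 CPM in the untreated libraries. On day 3 it stood at 291 CPM in CONV-TOPO and 258 CPM in EE-TOPO, and on day 7 at 347 and 330.3 CPM. The libraries of day 3 were therefore the lowest of the 7, and those of day 7 lay at or just under the untreated ones before scaling. The scaled ratio to untreated was 0.765 (0.737 to 0.795) in CONV-TOPO and 0.667 (0.644 to 0.691) in EE-TOPO on day 3, and 1.23 (1.19 to 1.28) and 1.15 (1.11 to 1.19) on day 7. Against the untreated libraries the difference on day 3 was -0.45 (log2, SE 0.12, unadjusted p = 0.00383, limma adjusted p = 0.183), which missed the threshold, whereas between the 2 days of topotecan ANXA5 rose by 0.58 (SE 0.13, limma adjusted p = 0.00529).

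ANXA6, at chr5:151100706-151157780 (minus strand), had 123, 98.2 and 101 CPM in the untreated libraries, 82.8 and 81.3 CPM in CONV-TOPO, and 91.0 and 75.9 CPM in EE-TOPO on days 3 and 7. All treated libraries lay below all untreated ones. The fitted difference was -0.38 (log2, SE 0.14, limma adjusted p = 0.247) on day 3 and -0.25 (SE 0.14, limma adjusted p = 0.180) on day 7. With library totals the difference on day 7 was -0.44 (limma adjusted p = 0.0157), so this call depends on the scaling. ANXA4, at chr2:69643808-69827113 (plus strand), had the narrowest range of the 9 tested members, with 29.0 to 35.9 CPM over the 7 libraries and a difference on day 7 of 0.12 (SE 0.14, limma adjusted p = 0.501).

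**Figure D3:**
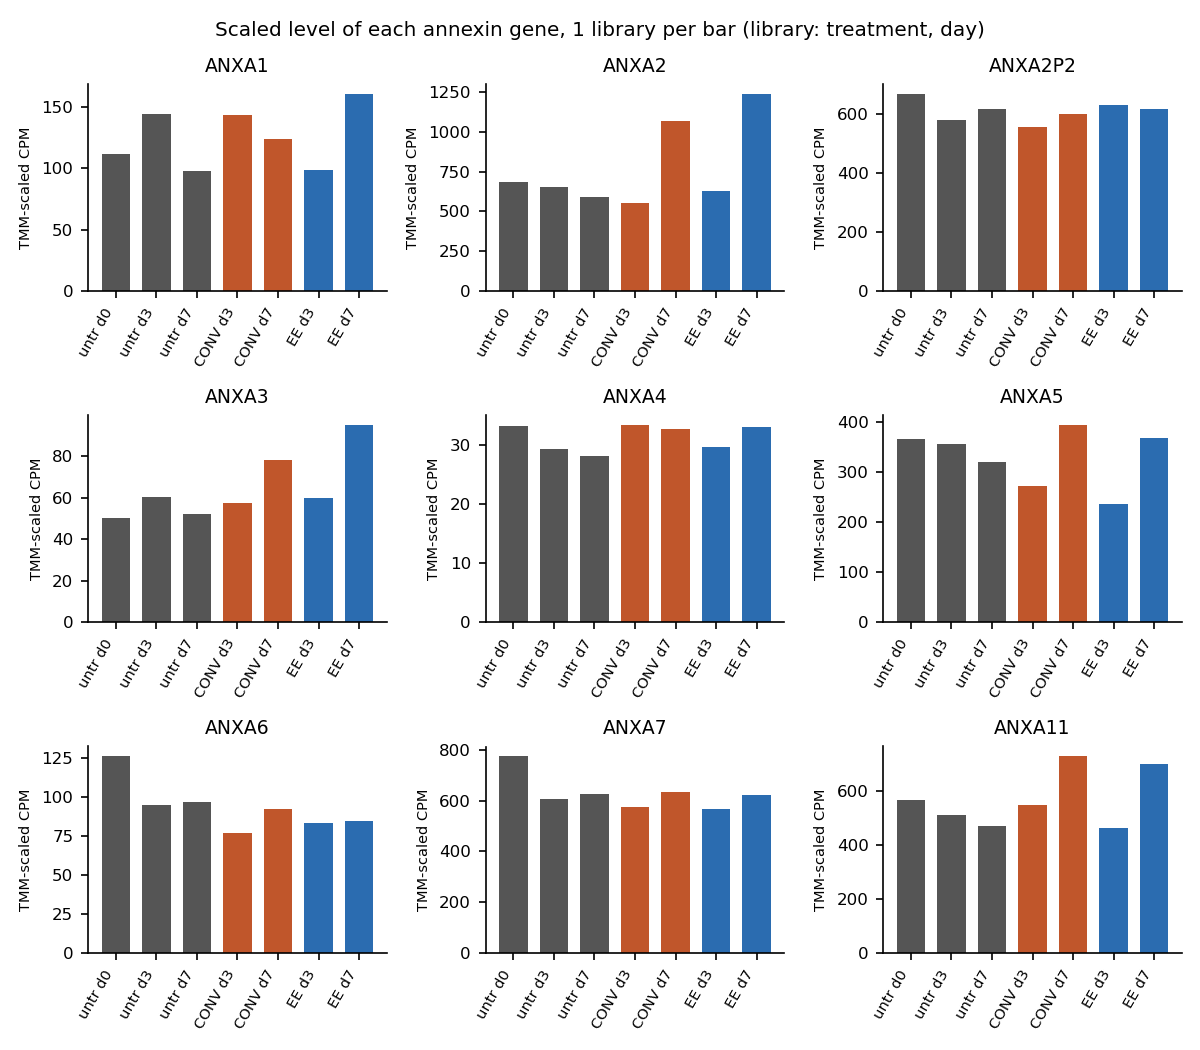
TMM-scaled CPM of the 9 tested annexin genes, with 1 bar per library coloured by treatment (grey untreated, orange CONV-TOPO, blue EE-TOPO) and each axis starting at 0. ANXA2, ANXA3 and ANXA11 stand highest in the libraries of day 7 with topotecan, ANXA5 lowest in those of day 3.

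Of the 9 tested members, 3 rose (ANXA2, ANXA3 and ANXA11) and 0 fell between untreated and day 7 of topotecan. Among all 14857 tested genes 20.1% were called higher and 23.3% lower in this comparison, 6446 genes in either direction. The shares of the 9 members were not tested against these backgrounds and are not read as a result about the family. With library totals ANXA11 lost its call and ANXA6 was called lower, which leaves 2 higher and 1 lower. The split over all genes depends on the scaling, with 2987 higher and 3459 lower after TMM and 1994 higher and 4778 lower with library totals. The median difference of the members was 0.13 against -0.05 for all tested genes (log2). For 5 members (ANXA2, ANXA3, ANXA5, ANXA6 and ANXA11) the scaled values of day 7 did not overlap the untreated ones, as was so for 63.2% of all tested genes. Across genes, the ratio of day 7 fell with transcript length, with a rank correlation over 14279 genes of one library pair of -0.56 in CONV-TOPO and -0.52 in EE-TOPO. The members that rose have canonical transcripts of 1.55 kb (ANXA2), 1.43 kb (ANXA3) and 6.73 kb (ANXA11), ANXA2P2 has 1.02 kb, and the part of length in the result was not tested. Markers also moved on day 7 against untreated, with KRT8 (0.92, limma adjusted p = 0.00153), KRT18 (0.71, 0.00422) and VIM (0.61, 0.00394) higher and CD44 at -0.24 (0.175). Of the 10 markers of other cell types, 8 were listed, and of the 4 of them above 1 CPM only CD68 was called (0.89 on the log2 scale, limma adjusted p = 0.00123), against 0.38 (0.366) for COL3A1, -0.19 (0.534) for PECAM1 and -0.36 (0.134) for COL1A1. Their part in the result was not tested.

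Between the 2 days of topotecan, 4 members rose (ANXA2 by 0.96, ANXA5 by 0.58, ANXA3 by 0.55 and ANXA11 by 0.50 on the log2 scale) and 0 fell. The limma adjusted p-values were 0.000808, 0.00529, 0.0107 and 0.0185. Over all tested genes 21.7% were higher and 23.5% lower (3217 and 3489 genes, or 1946 and 5284 with library totals). With library totals only ANXA2 of the 4 kept its call, at 0.68 (limma adjusted p = 0.0116), whereas ANXA3 had 0.27 (0.165), ANXA5 0.30 (0.0549) and ANXA11 0.22 (0.172). Without EE-TOPO on day 3 the same 3 members missed the threshold, at 0.57 (0.0506), 0.48 (0.0616) and 0.38 (0.157). ANXA3 also lost its call without CONV-TOPO on day 3 (0.52, adjusted p = 0.0561) and without EE-TOPO on day 7 (0.41, adjusted p = 0.0999), and ANXA11 without CONV-TOPO on day 7 (0.47, adjusted p = 0.0955) and without EE-TOPO on day 7 (0.53, adjusted p = 0.0682). In 6 members the days did not overlap, which held for 75.8% of all tested genes. This comparison shares its day 7 libraries with the one against untreated spheroids, so both are not independent.

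On day 3 limma called 0 of the 9 members and 0.0% of all tested genes, with 2287 genes at an unadjusted p below 0.05. The members' median was -0.06 against -0.01 for all tested genes (log2). The values of ANXA5, ANXA6 and ANXA7 lay below all untreated values in both regimens, and 33.9% of all tested genes had no overlap in this comparison.

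**Figure D4:**
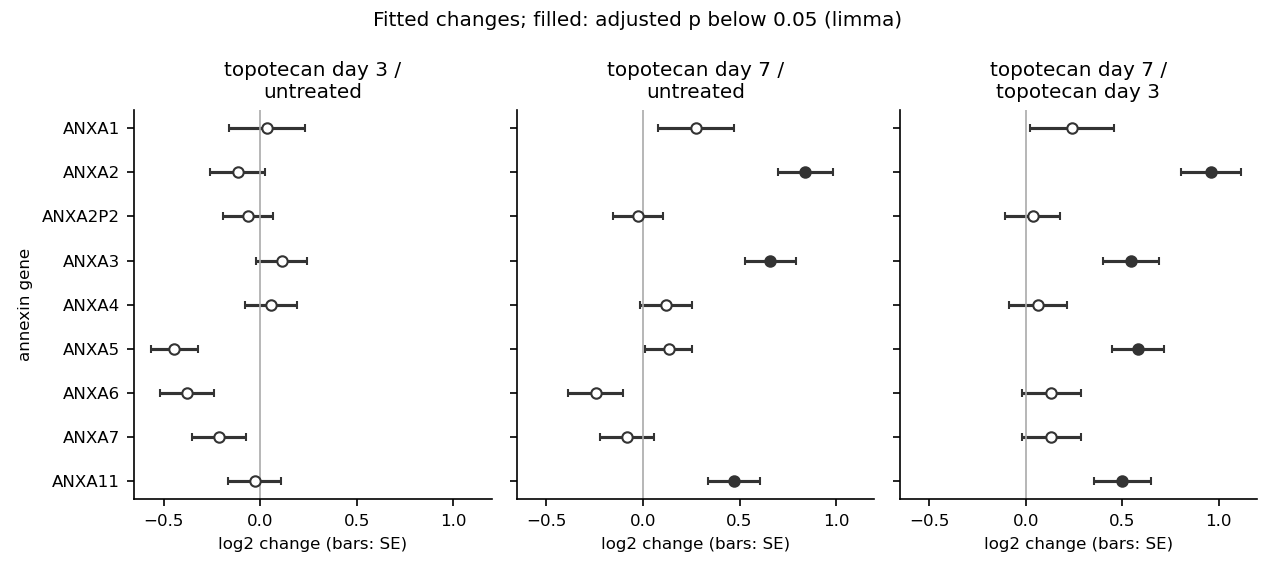
Fitted log2 differences of the 9 tested annexin genes with their SE in 3 comparisons, filled where the limma adjusted p is below 0.05. No point is filled for day 3 against untreated, 3 are filled for day 7 against untreated (ANXA2, ANXA3, ANXA11) and 4 for day 7 against day 3 of topotecan.

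In single libraries, a ratio of at least 1.5-fold to untreated on the same day was reached by 0 members on day 3, in CONV-TOPO (6.97% of tested genes reached it) and in EE-TOPO (11.6%). On day 7 it was reached by 2 members in CONV-TOPO, ANXA2 and ANXA11, where the background was 41.4%, and by 3 in EE-TOPO, ANXA1, ANXA2 and ANXA3, where it was 43.2%. Both shares of members, 2 of 9 and 3 of 9, lay under these backgrounds, with no test of the difference. ANXA3 in CONV-TOPO and ANXA11 in EE-TOPO lay just under it, both at 1.49. Among the 9985 tested genes with a mean of at least 10 CPM, a background chosen after seeing the data, 41.6% and 43.6% were past it on day 7.

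The regimens were compared to ask whether daily fractions and a bolus of topotecan differ. No member reached 1.5-fold between EE-TOPO and CONV-TOPO on day 3 (background 5.46%) or on day 7 (background 9.14%). The largest ratios on day 7 were those of ANXA1 at 1.29, ANXA3 at 1.21 (1.12 to 1.32) and ANXA2 at 1.15 (1.13 to 1.18), all higher in EE-TOPO. A second model, with terms for treatment and for day and the 6 libraries of days 3 and 7, in which the error is the change of a treatment's effect between days, called 0 members and 0.0% of all genes in EE-TOPO against CONV-TOPO (134 genes at an unadjusted p below 0.05). In that fit the difference between regimens was 0.20 (log2, SE 0.36) for ANXA2 and 0.16 (SE 0.28) for ANXA3, both at an adjusted p of 1.00. It also called 0 members and 0.0% of all genes in EE-TOPO against untreated (528 at an unadjusted p below 0.05) and in CONV-TOPO against untreated (0.0%, 259 at an unadjusted p below 0.05). ANXA2 had 0.51 (SE 0.36, adjusted p = 0.907) with EE-TOPO and 0.31 (SE 0.36, adjusted p = 0.913) with CONV-TOPO, and ANXA3 had 0.41 (SE 0.28, adjusted p = 0.907) and 0.25 (SE 0.28, adjusted p = 0.913). With 2 residual degrees of freedom, a gene that moves on one day only carries that move in its error. Without the untreated library of day 3, which leaves day 7 alone to set the difference from untreated, the untreated arm is 1 library assumed to vary as the topotecan libraries do. Limma then called ANXA2 in both regimens (1.055 in EE-TOPO and 0.855 in CONV-TOPO, adjusted p = 2.32e-05 and 0.000131) and ANXA3 in both (0.79 and 0.63, adjusted p = 0.00100 and 0.00503), with 6174 and 6459 genes called in all. Without the untreated library of day 7 instead, ANXA2 had -0.04 in EE-TOPO and -0.24 in CONV-TOPO (limma adjusted p = 0.913 and 0.525), so these calls rest on which untreated day is kept.

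Time in culture without drug moved no member past 1.5-fold, with backgrounds of 9.09% for day 3 against day 0, 8.58% for day 7 against day 0 and 9.65% for day 7 against day 3. The widest untreated ratio was that of ANXA1 on day 7 to day 3, 0.678 (0.640 to 0.718), after 1.29 (1.22 to 1.36) on day 3 to day 0. ANXA6 and ANXA7 stood highest on day 0, and on day 7 their ratios to day 0 were 0.766 (0.722 to 0.814) and 0.807 (0.788 to 0.827). These untreated differences exceeded counting error and were part of the error of the fits against untreated.

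Of 25 partner genes of annexins, 24 were listed and 22 were tested. On day 7 of topotecan 9 rose and 7 fell against untreated, beside 20.1% and 23.3% of all tested genes. With library totals 7 were called higher and 8 lower, beside 1994 and 4778 of the 14857 tested genes. Against day 3 of topotecan 9 rose and 5 fell, beside 21.7% and 23.5% of all tested genes. With library totals 8 were called higher and 8 lower in that comparison, beside 1946 and 5284 of all tested genes. The median partner difference on day 7 was 0.30 against -0.05 for all tested genes (log2). Beyond the partners named above, those that rose were the membrane repair and ESCRT gene CHMP4B (0.79, SE 0.12) and the calpain subunits CAPN1 (0.75, SE 0.14) and CAPNS1 (0.68, SE 0.14). The count of 9 also holds FPR3, which passed the filter on low values only through treated libraries and therefore adds no support. The others that fell were MYOF, a membrane repair protein of the ferlin family (-1.09, SE 0.15), RASA1, a Ras GTPase activating protein that ANXA6 recruits (-1.08, SE 0.14), PDCD6IP, also known as ALIX (-0.62, SE 0.11), the scramblase ANO6 (-0.60, SE 0.17) and the calpain CAPN2 (-0.58, SE 0.19). Their limma adjusted p-values lay between 0.000251 (RASA1) and 0.0279 (CAPN2). The ferlin DYSF differed by 0.33 (SE 0.23, limma adjusted p = 0.272), so membrane repair genes did not move in 1 direction. Across all genes the ratio of day 7 fell with transcript length (rank correlation -0.56 in CONV-TOPO and -0.52 in EE-TOPO). The part of length in the partner differences, those of S100A10, S100A11 and AHNAK included, was not tested.

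**Figure D5:**
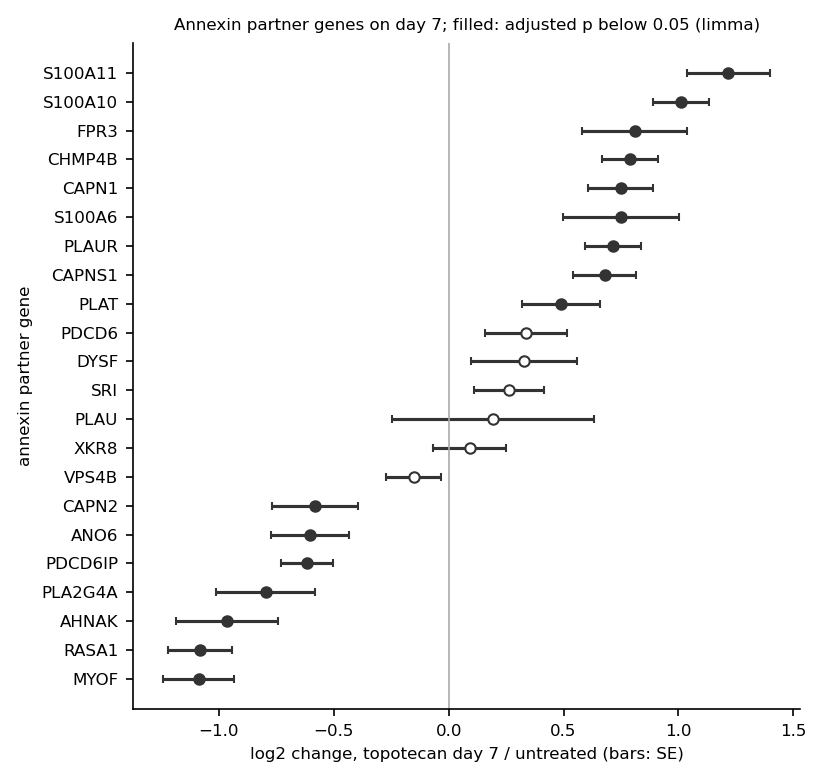
Fitted log2 differences (day 7 of topotecan against untreated) of the 22 tested annexin partner genes with their SE, ordered by size and filled where the limma adjusted p is below 0.05. S100A11 (1.22) and S100A10 (1.01) lie at the top and MYOF (-1.09) and RASA1 (-1.08) at the bottom.

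Other annexin genes were weak in these spheroids. Of 7 looked for, 5 were listed, 4 were tested and limma called 0 in any comparison. ANXA10 had 6.01 to 13.4 CPM, ANXA2R 3.83 to 8.82 CPM and ANXA9 0.368 to 0.865 CPM. The other ANXA2 pseudogenes, ANXA2P1 (0.304 to 0.658 CPM) and ANXA2P3 (0 to 0.159 CPM), stayed far under ANXA2P2.

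Genes whose level over the 7 libraries was most like that of ANXA2, among 9976 genes, were FTL (Pearson r = 0.997), which encodes the ferritin light chain, and LIMD2 (0.996). For ANXA3 they were TRAF2 (0.994), TOM1 (0.990) and CEBPD (0.989), and for ANXA1 they were GMIP (0.963), RAP1B (0.959) and TTC38 (0.944). The likeness is a description over libraries that share their scaling and the shift of day 7. FTL, for example, had 570.1 to 676 CPM in the untreated and day 3 libraries and 1011 and 1265 CPM in CONV-TOPO and EE-TOPO on day 7.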

How the data were processed

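The authors deposited 1 table of CPM (counts per 1000000 reads), to which 0.0001 had been added, and this offset was subtracted. STAR was used for mapping according to the study's methods, and the submitters' processing notes name Partek and hg38. Strand use and the handling of reads matching several genes are not given in the sources used here. Day 1 (3 libraries) was not analysed here.

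Low CPM values are multiples of 1 read, which gave each depth, but only 88.9% to 90.2% of them were whole within 0.02 of a read, so no count test was run. Exact 95% intervals (conditional binomial for ratios, Poisson for levels) cover counting error only.

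TMM-scaled log2(CPM + 1) values were tested with limma 3.58.1 in R 4.3.3 (empirical Bayes with a trend, Benjamini-Hochberg adjustment, a call at an adjusted p under 0.05). The 14857 genes tested reached 0.528 CPM (10 reads in a library of median depth) in 2 or more libraries. Differences on this scale understate those of low genes. One fit had 3 groups (untreated on 3 days, both regimens on day 3, both on day 7, with 4 residual degrees of freedom), the other had treatment and day. The p-values measure the spread between these libraries, days or regimens included, and not that of replicate cultures. Both fits were tested on simulated data with independent noise and changes larger than those of the members, so that test does not cover the calls reported here. Transcripts came from GENCODE 44. Other tools were Python 3.11.15 with matplotlib 3.10.9, scipy 1.17.1, pandas 2.3.3 and numpy 2.4.6.

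The text names the 10 members, 7 other annexin genes, 25 partners, cell type markers and, for ANXA1, ANXA2 and ANXA3, the 3 genes most correlated with each among tested genes of at least 10 CPM, of which 1 is not reported here. The members and lists were chosen with earlier results of these data known. Alternatives covered the scaling, pseudocount, filter, trend, baseline, fold and each library left out.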

Additional observations from a re-analysis of the deposited data

Results flagged for a closer look

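Levels under topotecan differed between its 2 days in 4 of the 9 tested members. This was the fitted difference between day 7 and day 3 of topotecan. No untreated library enters it, so time in culture is not removed and a change of the drug's effect was not tested. The log2 differences were 0.959 for ANXA2, 0.581 for ANXA5, 0.547 for ANXA3 and 0.501 for ANXA11 (limma, adjusted p = 0.000808, 0.00529, 0.0107 and 0.0185), each higher on day 7 in both regimens. Among all tested genes 21.7% were called higher and 23.5% lower in this comparison. With library totals only ANXA2 of the 4 kept its call. For ANXA5 the scaled values of day 3 lay below all untreated ones and those of day 7 just above them. The closest were 366.8 CPM in EE-TOPO on day 7 and 365.2 CPM in the untreated library of day 0. Its fitted difference on day 7 against untreated was 0.13 (limma adjusted p = 0.400), and -0.064 with library totals. ANXA1 on day 3 had a scaled ratio to untreated of 0.685 (0.649 to 0.724) in EE-TOPO and 0.997 (0.943 to 1.05) in CONV-TOPO (mean log2 ratio -0.27). On day 7 both regimens lay above untreated (mean log2 ratio 0.524). The untreated libraries of these days also differed, at a ratio of 0.678 on day 7 to day 3. The change of the same-day ratios between days was not tested. The fitted difference between the days of topotecan, which has no same-day untreated term, was 0.24 (limma adjusted p = 0.384).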

How the results depend on the processing

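ANXA2 and ANXA3 kept their direction and call on day 7 against untreated under every alternative run, at 0.64 to 0.945 (adjusted p up to 0.0198) and 0.46 to 0.80 (adjusted p up to 0.0439) on the log2 scale. Over the members' values in the fits, 407 alternatives gave the same direction and side of the threshold, 14 lost a call, 5 gained one and 30 turned a difference that was not called in the main result. With library totals, the values that turned were, against untreated on day 7, ANXA4 -0.073 and ANXA5 -0.064, on day 3, ANXA2P2 0.017 and ANXA11 0.051, and between the days of topotecan ANXA1 -0.037, ANXA2P2 -0.242, ANXA4 -0.207, ANXA6 -0.143 and ANXA7 -0.146. ANXA2P2 on day 7 turned to 0.014 with median-of-ratios size factors and to 0.027 with untreated days 3 and 7 only, which also gave ANXA7 0.029 on day 7 and ANXA11 0.037 on day 3.

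Leaving out each library in turn, differences that turned ranged on day 7 against untreated from -0.075 to 0.027 (ANXA2P2) and -0.149 to 0.029 (ANXA7), on day 3 from -0.234 to 0.302 (ANXA1), -0.157 to 0.029 (ANXA2P2), -0.024 to 0.137 (ANXA4) and -0.148 to 0.089 (ANXA11), and between the days of topotecan from -0.028 to 0.508 (ANXA1), -0.056 to 0.131 (ANXA2P2) and -0.016 to 0.145 (ANXA4). In the fit with treatment and day they ranged for ANXA2 from -0.04 to 1.055 (EE-TOPO), -0.24 to 0.855 (CONV-TOPO) and -0.078 to 0.479 (EE-TOPO against CONV-TOPO), and for ANXA3 from -0.127 to 0.626 (CONV-TOPO) and -0.11 to 0.436 (EE-TOPO against CONV-TOPO). The number of genes called ranged from 4042 to 6270 (day 7 against untreated), 3844 to 6926 (day 7 against day 3), 0 to 212 (day 3 against untreated), 0 to 6174 (EE-TOPO against untreated), 0 to 6459 (CONV-TOPO against untreated) and 0 to 70 (EE-TOPO against CONV-TOPO). The highest counts of the fit with treatment and day against untreated came without the untreated library of day 3, which leaves day 7 alone to set the difference.

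With the 4 libraries of the 2 treatments compared, 34 (EE-TOPO), 9 (CONV-TOPO) and 77 genes (EE-TOPO against CONV-TOPO) were called in place of 0. Members past 1.5-fold were 1 (CONV-TOPO) and 2 (EE-TOPO) on day 3 with the untreated library of day 0 as baseline, and 1 (CONV-TOPO) and 2 (EE-TOPO) on day 7 with library totals. At a fold of 2 there were 0 (CONV-TOPO) and 1 (EE-TOPO) on day 7. The cause of these changes was not tested. Depth limits ANXA8, at or under 3 reads in each library, and the data hold no replicate cultures.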
